A study of Mus musculus with 6 samples.

Results

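The genes of MHC class I antigen presentation and of the immunoproteasome were followed in spleen RNA of mice that carry a cyclin D3 knock-in. The set was defined by gene symbol, with earlier results of these data known, and holds 10 genes of the 24906 in the deposited table. These are H2-K1, H2-D1, B2m, Tap1, Tap2, Tapbp, Psmb8, Psmb9, Psmb10 and Nlrc5. All 10 were present, each under 1 gene identifier, and all 10 were high enough to be tested. The D3TA group held 3 C57BL/6J mice with a CRISPR/Cas9-made change in Ccnd3 that replaces threonine 283 of cyclin D3 with alanine (T283A). The WT group held 3 wild-type mice of matched age. All 6 mice were 12 to 16 months old, an age at which the series record describes severe myeloproliferative neoplasm in the knock-in line, which was kept as heterozygotes. The labels give the zygosity of no single mouse. The edit is present in every tissue, and each library is polyadenylated RNA of the whole spleen cell mixture of 1 mouse, with 14944622 to 19456838 reads on genes.

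MHC class I molecules show peptides from inside the cell to CD8 T cells and to natural killer (NK) cells. A heavy chain (H2-K or H2-D in C57BL/6 mice) pairs with the light chain beta-2 microglobulin, made from B2m. The proteasome cuts the peptides, and in cells exposed to interferon gamma, and in most immune cells, its 3 catalytic subunits are replaced by Psmb8, Psmb9 and Psmb10. The transporter made of Tap1 and Tap2 carries peptides into the endoplasmic reticulum, where tapasin (Tapbp) holds the empty class I molecule beside it. Nlrc5 is a transcriptional coactivator of these genes that acts at a conserved promoter module, alongside interferon regulatory factors (IRF) and NF-kappaB. Nearly all nucleated cells make class I, but lymphocytes carry much more of it than erythroid precursors do.

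The promoters of the heavy and light chains are shown because they carry boxes of the conserved promoter module at which Nlrc5 acts. Each run is 300 bases, 250 before and 50 after the transcript start, from RefSeq on GRCm38.p6, which had a promoter for 8 of the 10 genes. Capitals mark, where present, the kappaB core (GGGATTCC), the IRF core (AANNGAAA) and a pair of boxes, TGACG of the X2 box and ATTGG of the Y box, with 20 bases between them.
H2-K1 (chr17:34000298-34000597, minus strand): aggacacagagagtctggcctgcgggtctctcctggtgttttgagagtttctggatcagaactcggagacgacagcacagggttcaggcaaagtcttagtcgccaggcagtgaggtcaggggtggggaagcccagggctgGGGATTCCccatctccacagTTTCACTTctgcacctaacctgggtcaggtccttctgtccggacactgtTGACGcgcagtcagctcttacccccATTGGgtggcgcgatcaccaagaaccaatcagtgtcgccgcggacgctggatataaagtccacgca
H2-D1 (chr17:35262844-35263143, plus strand): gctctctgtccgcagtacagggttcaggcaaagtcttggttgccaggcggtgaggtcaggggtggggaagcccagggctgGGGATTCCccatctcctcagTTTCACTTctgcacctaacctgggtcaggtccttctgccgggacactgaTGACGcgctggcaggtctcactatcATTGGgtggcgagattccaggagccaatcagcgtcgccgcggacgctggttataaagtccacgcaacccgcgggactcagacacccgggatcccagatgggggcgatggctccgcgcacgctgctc
B2m (chr2:122147437-122147736, plus strand): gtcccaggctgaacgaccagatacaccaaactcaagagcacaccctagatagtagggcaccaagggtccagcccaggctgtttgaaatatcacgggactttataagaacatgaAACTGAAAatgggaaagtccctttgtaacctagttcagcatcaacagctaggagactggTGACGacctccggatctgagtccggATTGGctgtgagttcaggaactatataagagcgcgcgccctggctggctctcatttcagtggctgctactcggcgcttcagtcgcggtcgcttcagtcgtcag
The pair with that spacing was found in these 3 promoters and in none of the other 5 (Tap1, Tapbp, Psmb8, Psmb9 and Psmb10), searching both strands. The spacing was read from these promoters. Among 27025 RefSeq promoters of the same length, 26 (0.0962%) held it, and H2-M3, a non-classical class I gene, was also one of them. The kappaB core was in H2-K1 and H2-D1 and in 1.07% of all promoters. The IRF core was in all 3 printed promoters and in 24.2% of all promoters. Tap1 and Psmb9 lie back to back on opposite strands, and their 2 promoter windows share 275 of 300 bases. A match describes letters in a window and does not show binding.

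Transcripts of 9 of the 10 genes lay lower on average in D3TA spleens, and Nlrc5 lay higher. None of the 10 passed the transcriptome-wide test. Levels are given as normalized read counts. A difference is the D3TA mean less the WT mean of log2(normalized count + 1), with the standard error (SE) from limma, a linear model with moderated variances. Adjusted p-values are Benjamini-Hochberg values over all 15564 genes tested, of which limma called 0 (0%) at 0.05. Members reached adjusted p-values between 0.544 (H2-K1) and 0.931 (Tapbp), and 0 of 10 had an unadjusted p under 0.05, against 6.08% of all genes tested that did so higher in D3TA and 3.83% lower. The median member difference was -0.43, and the median over all genes tested was 0.06. On reads recovered from the table, edgeR's quasi-likelihood test also called 0 genes and DESeq2 called 472 (2.54%), none of them a member.

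**Figure D1:**
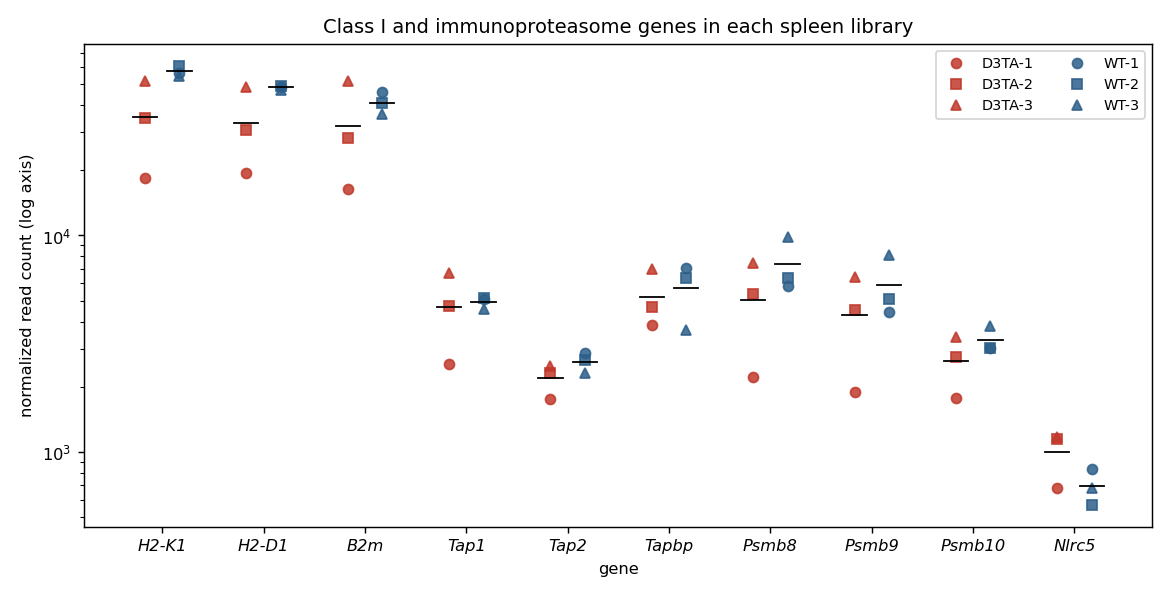
Normalized read count (log axis) of each of the 10 genes in the 3 D3TA libraries (red, left) and the 3 WT libraries (blue, right), with a black line at each group's mean. D3TA-1 (red circles) is the lowest of the 6 libraries for 8 genes, and the WT points lie close together for H2-K1, H2-D1 and Tap1.

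The heavy chains were the most abundant members with B2m. H2-K1 (ENSMUSG00000061232, chr17:33996017-34000347, minus strand), which encodes the H2-K heavy chain, had 18443, 35051 and 51827 normalized counts across D3TA-1 to D3TA-3, against 56539.9, 60706 and 54500.4 in WT-1, WT-2 and WT-3. All 3 D3TA values lay below all 3 WT values. The log2 difference was -0.83 ± 0.40 (SE), or 0.564 of the WT level, with a limma adjusted p of 0.544. H2-K1 was the single member of 10 whose groups did not overlap, and 6.84% of all genes tested had all 3 D3TA values below WT, so a count of 1 in 10 is near that background.

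H2-D1 (ENSMUSG00000073411, chr17:35262730-35267499, plus strand), the H2-D heavy chain, had 19511, 30837 and 48743 normalized counts across D3TA-1 to D3TA-3, against 48716, 49285 and 46816 across WT-1 to WT-3. D3TA-1 and D3TA-2 were below every WT library, while D3TA-3 lay among them. The log2 difference was -0.65 ± 0.38 (SE; limma adjusted p 0.624). B2m (ENSMUSG00000060802, chr2:122147686-122153083, plus strand) had 16317, 28139 and 51637 across D3TA-1 to D3TA-3, against 45799.5, 40847 and 36336 across WT-1 to WT-3. D3TA-3 was the highest of all 6 libraries for B2m and D3TA-1 the lowest. The log2 difference was -0.51 ± 0.42 (SE; limma adjusted p 0.727).

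H2-K1, H2-D1 and the H2-Q and H2-T genes are close copies that can share reads, so the split between them is uncertain. The ratio of H2-K1 to H2-D1 was 0.945, 1.14 and 1.06 across D3TA-1 to D3TA-3, against 1.16, 1.23 and 1.16 across WT-1 to WT-3. The D3TA ratios were all lower than the WT ratios, a comparison picked after the values were seen and not tested. Together the 3 chain genes took 0.326%, 0.565% and 1.007% of all reads across D3TA-1 to D3TA-3, against 0.951%, 0.902% and 0.732% across WT-1 to WT-3.

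Per kilobase of exon, B2m had the highest level of the 10 in both groups, at 37245 ± 20905 normalized counts in D3TA against 47667 ± 5504 in WT (SD over 3 mice each). The heavy chains followed at 11949 ± 5681 (H2-K1) and 12807 ± 5715 (H2-D1) in D3TA, and 19486 ± 1077 and 18717 ± 501 in WT. The ranges of the 2 heavy chains over mice overlapped in both groups. Within libraries, H2-K1 over H2-D1 per kilobase was 0.830, 0.998 and 0.933 across D3TA-1 to D3TA-3, against 1.02, 1.08 and 1.02 across WT-1 to WT-3, a comparison not tested. The other 7 members lay well below them, between 117 (Nlrc5) and 1547 (Psmb10) per kilobase in D3TA and between 81.6 (Nlrc5) and 2173 (Psmb8) in WT. The exon lengths are unions over all annotated transcripts, which lowers the level of genes with many isoforms.

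Peptide transport genes differed least between the groups. Tap1 (ENSMUSG00000037321, chr17:34187553-34197225, plus strand), a subunit of the peptide transporter, had 2559.9, 4735 and 6735 normalized counts across D3TA-1 to D3TA-3, against 5087, 5118 and 4559 across WT-1 to WT-3. The D3TA values spanned the WT range on both sides. The log2 difference was -0.18 ± 0.36 (SE; limma adjusted p 0.901), and it was 0.20 without D3TA-1.

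Tap2 (ENSMUSG00000024339, chr17:34203527-34216321, plus strand), the partner of Tap1, had 1754, 2325 and 2493 normalized counts across D3TA-1 to D3TA-3, against 2870, 2667 and 2305 across WT-1 to WT-3. D3TA-1 was the lowest library and WT-1 the highest, with a log2 difference of -0.26 ± 0.28 (SE; limma adjusted p 0.786). Tapbp (ENSMUSG00000024308, chr17:33915899-33929292, plus strand), the tapasin gene, had 3878, 4661 and 7028 across D3TA-1 to D3TA-3, against 7089.6, 6350.0 and 3658 across WT-1 to WT-3. The lowest Tapbp value was that of WT-3, so the 2 groups covered nearly the same range. Its log2 difference was -0.12 ± 0.36 (SE; limma adjusted p 0.931), and 0.06 without D3TA-1 or without WT-1.

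The 3 immunoproteasome subunits varied alike across the libraries, with D3TA-1 lowest and WT-3 highest for each. Psmb8 (ENSMUSG00000024338, chr17:34197721-34201454, plus strand) encodes beta-5i, with chymotrypsin-like activity. It had 2209.6, 5351 and 7497 normalized counts across D3TA-1 to D3TA-3, against 5833, 6387 and 9824 across WT-1 to WT-3. Psmb9 (ENSMUSG00000096727, chr17:34181987-34187764, minus strand), the beta-1i subunit, had 1883, 4519 and 6452 across D3TA-1 to D3TA-3, against 4450.3, 5094 and 8089 across WT-1 to WT-3. In both genes D3TA-3 lay above WT-1 and WT-2, so the groups overlapped, with log2 differences of -0.68 ± 0.44 (Psmb8) and -0.58 ± 0.45 (Psmb9; SE, limma adjusted p 0.655 and 0.705).

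Psmb10 (ENSMUSG00000031897, chr8:105935735-105938444, minus strand), the beta-2i subunit, lies outside the MHC. It had 1781, 2732 and 3398 normalized counts across D3TA-1 to D3TA-3, against 3023, 3021 and 3816 across WT-1 to WT-3. D3TA-1 and D3TA-2 were below every WT library, and the log2 difference was -0.36 ± 0.31 (SE; limma adjusted p 0.737). Psmb8 and Psmb9 are neighbours on chromosome 17. Psmb9 over Psmb8 was 0.852, 0.844 and 0.861 across D3TA-1 to D3TA-3, against 0.763, 0.798 and 0.823 across WT-1 to WT-3. The D3TA ratios were all higher, which was also noticed after the values were seen and not tested. The ratio of Psmb9 to Tap1, which share a promoter region, varied more, at 0.736, 0.954 and 0.958 across D3TA-1 to D3TA-3, against 0.875, 0.995 and 1.77 across WT-1 to WT-3.

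Each immunoproteasome subunit takes the place of a constitutive one. The ratio of such a pair within a library does not depend on how the library was scaled. Psmb8 over Psmb5, the constitutive beta-5 subunit, was 0.836, 2.68 and 3.71 across D3TA-1 to D3TA-3, against 2.60, 2.72 and 2.72 across WT-1 to WT-3. The WT libraries nearly coincided, while D3TA-1 lay below them, D3TA-2 among them and D3TA-3 above them. The difference in mean log2 ratio was -0.40 (exact permutation test, 2-sided, p = 0.80, n = 3 each, where 0.10 is the smallest p possible).

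Psmb9 over Psmb6, the constitutive beta-1 subunit, was 0.705, 1.78 and 2.63 across D3TA-1 to D3TA-3, against 1.93, 1.94 and 1.82 across WT-1 to WT-3. D3TA-1 and D3TA-2 lay below every WT library and D3TA-3 above, with a difference of -0.35 (exact permutation test, 2-sided, p = 0.70, n = 3 each). Psmb10 over Psmb7, the constitutive beta-2 subunit, was 1.77, 3.17 and 2.10 across D3TA-1 to D3TA-3, against 2.41, 2.74 and 2.12 across WT-1 to WT-3. Here D3TA-2 was the highest library, and the difference was -0.08 (exact permutation test, 2-sided, p = 0.80, n = 3 each). Adjusted over the 3 ratios, each exact permutation p was 0.80. The constitutive genes themselves had log2 differences of -0.28 (Psmb5), -0.23 (Psmb6) and -0.28 (Psmb7), and none passed. D3TA-1 was not the lowest library for any of these 3. Without D3TA-1 the 3 ratio differences were 0.23, 0.19 and 0.10, the other way round.

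**Figure D2:**
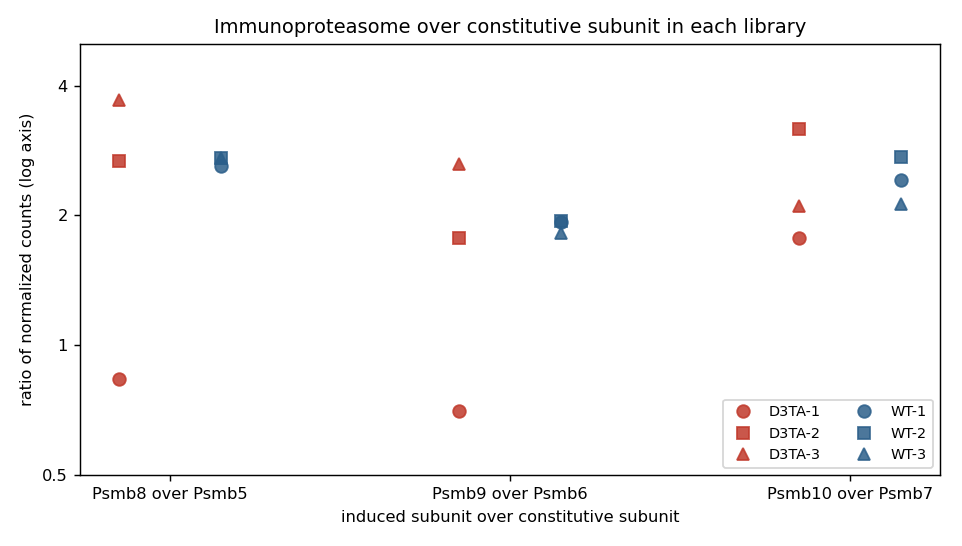
Ratio of normalized counts (log axis) of each immunoproteasome subunit to the constitutive subunit it replaces, for the 3 D3TA libraries (red, left) and the 3 WT libraries (blue, right). For Psmb8 over Psmb5 the WT points lie between 2.60 and 2.72 while the D3TA points run between 0.836 and 3.71.

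Nlrc5 (ENSMUSG00000074151, chr8:94434356-94527272, plus strand), the class I transactivator, was the member that lay higher in D3TA. It had 679, 1145 and 1167 normalized counts across D3TA-1 to D3TA-3, against 831, 570 and 678 across WT-1 to WT-3. D3TA-2 and D3TA-3 were above every WT library, and D3TA-1 lay inside the WT range. The log2 difference was 0.50 ± 0.32 (SE; limma adjusted p 0.648), and 0.75 without D3TA-1. The difference was between 0.36 and 0.75 whichever library was left out.

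D3TA-1 stood apart. It was the lowest of the 6 libraries for 8 of the 10 members (Tapbp and Nlrc5 were the exceptions), against 23.7% of all genes tested. Relative to the WT mean, the mean log2 level of the members stood at -1.04, -0.26 and 0.20 across D3TA-1 to D3TA-3, and within -0.03 to 0.02 for the WT libraries. That narrow WT range averages over genes that varied in opposite ways. WT-3 was the highest library for each immunoproteasome subunit and the lowest for Tapbp. The median member difference became -0.10 when D3TA-1 was left out and -0.75 when D3TA-3 was left out. In the set without D3TA-3, limma called 278 of all genes (1.83%) and still 0 members (smallest adjusted p 0.213, H2-K1). Hemoglobin transcripts took over 5% of reads in D3TA-1, D3TA-2 and WT-3 and under 2% in D3TA-3, WT-1 and WT-2. Between the libraries with a high share, the median member difference was -0.78 and 2 of 10 members lay above 0. Between those with a low share it was 0.21 and 7 of 10 lay above 0. Each of these rests on a single library of one group. Y-linked transcripts were abundant in D3TA-3 and WT-1. Between these 2 the member median was 0.17, and among the other 4 it was -0.73. D3TA-3 was the only D3TA library in both the low-share and the Y-linked comparison. Within D3TA, hemoglobin share, Y-linked reads and that mouse therefore cannot be told apart.

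**Figure D3:**
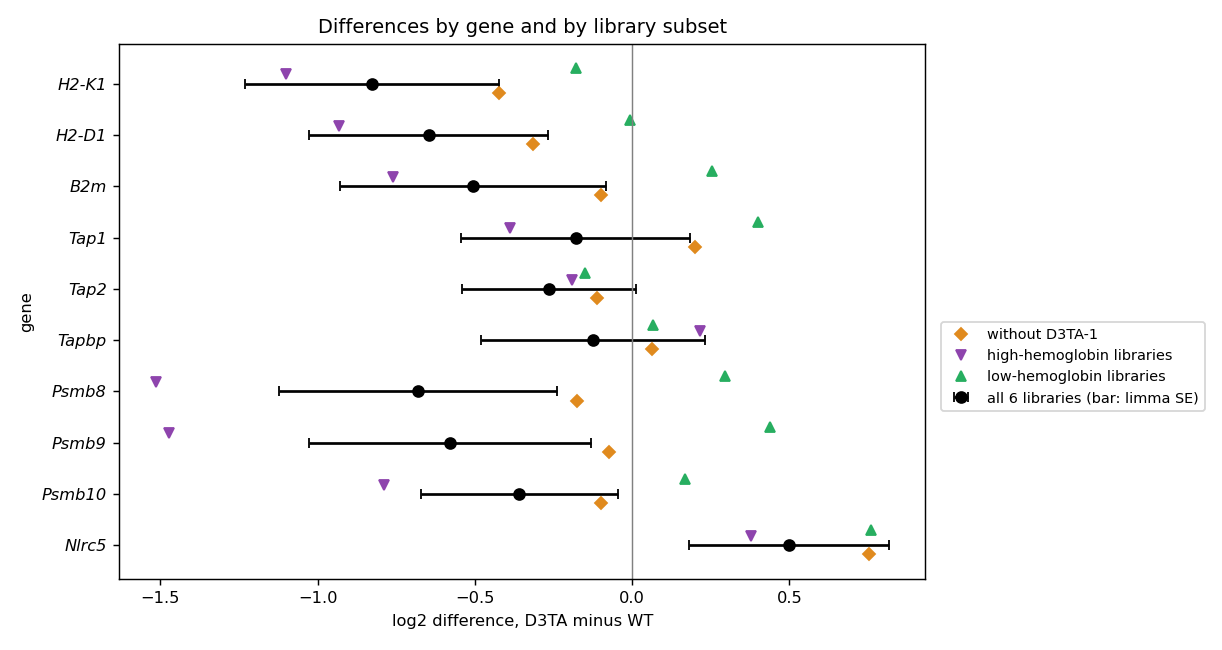
Log2 difference (D3TA minus WT) of each gene in all 6 libraries (black, bar: limma SE), without D3TA-1 (orange), among the high-hemoglobin libraries (purple) and among the low-hemoglobin libraries (green). Nlrc5 lies above 0 in each set, and H2-K1, H2-D1 and Tap2 below 0.

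Cell type markers also differed in mean between the groups. Between the low-hemoglobin libraries, with D3TA-3 alone for D3TA, medians were -1.31 (B cell), -0.26 (T cell), 0.23 (NK cell), 2.64 (neutrophil) and 0.21 (members). Between the high-hemoglobin libraries, with WT-3 alone for WT, they were -1.50, -0.68, -1.65, 3.99 and -0.78 in the same order. Median differences over all libraries were 0.80 for monocyte, -0.46 for red pulp macrophage, -0.12 for dendritic cell and 0.38 for endothelial and stromal markers. The dendritic cell median was 0.19 without D3TA-1. Without WT-3, the red pulp macrophage median was -0.09 and the endothelial and stromal median -0.14. In a spleen mixture, fewer cells of a type and less RNA per cell cannot be told apart. All 12 neutrophil markers lay higher in all 3 D3TA libraries than in any WT library, as did 8.18% of all genes tested. Their summed normalized counts were 83809 to 462484 in D3TA and 12920.2 to 28739 in WT. At an adjusted p under 0.05 limma called 0 of the 12 (0% of all genes tested) and DESeq2 11 (2.54%). All 10 B cell markers had negative differences (median -1.46, and -0.82 without D3TA-1), with sums of 13414 to 41034 in D3TA and 67097 to 84293 in WT. All 10 T cell markers did so too, with a median of -0.78 that was -0.24 without D3TA-1, where 2 of 10 were positive (4252 to 14676 in D3TA and 11646 to 18714 in WT), as did 6 of 8 NK cell markers (1865 to 3979.7 in D3TA and 2472 to 5148 in WT). The NK cell median was -0.44. It was -0.37 without D3TA-1, with 3 of 8 positive, and -0.05 without WT-3, with 4 of 8 positive. All 10 erythroid markers had positive differences (median 0.78), with sums of 299995 to 1157053 in D3TA and 244633 to 1256347 in WT. Without D3TA-1 their median was 0.38 with 8 of 10 positive. Between the low-hemoglobin libraries the erythroid median was -0.17 with 3 of 10 positive. For the B cell, T cell and erythroid lists no marker was at 0 in any library, and 1 neutrophil marker was at 0 in WT-2. Their part in the class I values was not tested. D3TA-1 had the lowest B cell, T cell and NK sums and the highest neutrophil sum of the 6.

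MHC class II genes, which are made mainly by B cells, macrophages and dendritic cells, also had lower means in D3TA. All 11 had negative differences with a median of -1.12, 6 of 11 had D3TA values wholly below WT (6.84% of all genes tested), and 0 passed limma's adjusted threshold, with 6 at an unadjusted p under 0.05, all lower (3.83% of all genes tested). Without D3TA-1 the class II median was -0.51, and 2 of 11 were positive. H2-Oa, which encodes part of the inhibitor of the class II peptide editor, had 279.6, 1104 and 1490.2 normalized counts across D3TA-1 to D3TA-3, against 2377, 3134 and 1853 across WT-1 to WT-3 (log2 difference -1.63 ± 0.54 SE; limma adjusted p 0.377). H2-Ob, its partner chain, had a log2 difference of -1.28 ± 0.49 (SE; limma adjusted p 0.424). Within a library, the mean log2 level of the class I members minus that of the class II genes was 0.44, -0.25 and -0.28 across D3TA-1 to D3TA-3, against -0.71, -0.72 and -0.60 across WT-1 to WT-3. The D3TA values were all higher, a contrast made after the values were seen and not tested.

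**Figure D4:**
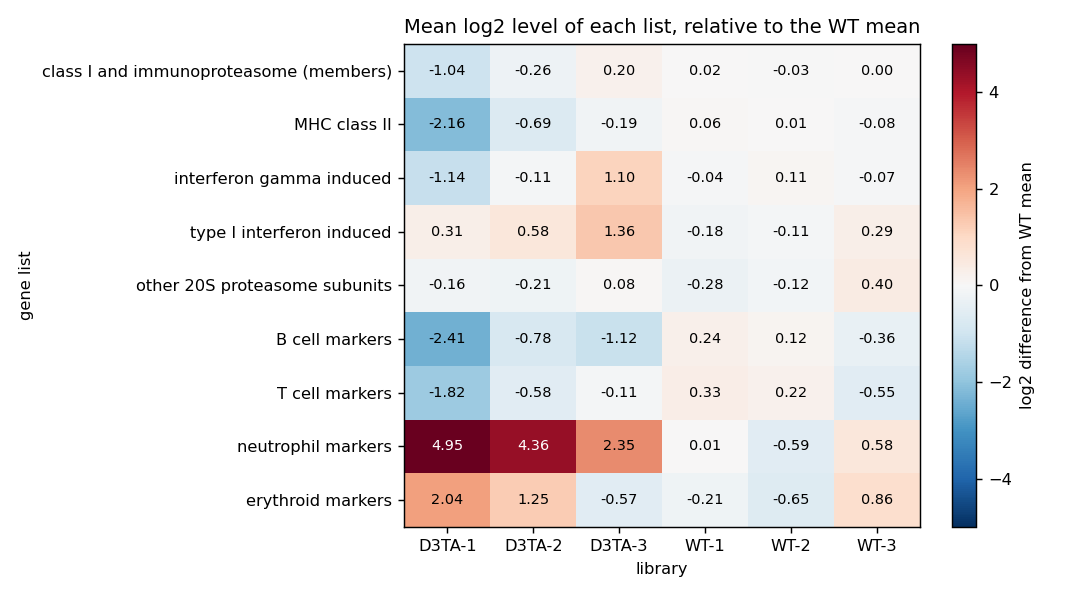
Mean log2 level of 9 gene lists in each library, relative to the mean of the WT libraries (red higher, blue lower, value printed in each cell). The members stand at -1.04, -0.26 and 0.20 across D3TA-1 to D3TA-3, MHC class II at -2.16, -0.69 and -0.19, and neutrophil markers at 4.95, 4.36 and 2.35.

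Non-classical class I genes, some of which present to NK or innate-like T cells, had 15 of 20 listed genes tested. Of these 4 had positive and 11 negative differences, with a median of -0.28. The direction turned without D3TA-1, where 9 of 15 were positive and the median was 0.11. None passed limma's adjusted threshold, and at an unadjusted p under 0.05 stood 1 higher (6.08% of all genes tested) and 2 lower (3.83%). Cd1d1, which presents lipids to natural killer T cells, had 185, 503 and 339 normalized counts across D3TA-1 to D3TA-3, against 528, 679 and 1110.5 across WT-1 to WT-3. Its D3TA values were all below WT, as in 6.84% of all genes tested (log2 difference -1.22 ± 0.42 SE; limma adjusted p 0.396). H2-M2 had 19.3, 98.0 and 315 across D3TA-1 to D3TA-3, against 405, 518 and 232 across WT-1 to WT-3. It was the list's lowest difference, at -2.09 ± 0.82 (SE; limma adjusted p 0.432), and it passed without D3TA-3 (adjusted p 0.0395, limma). H2-M3, which presents formylated peptides and holds the same promoter pair as H2-K1, was named after its values were seen. It had 484, 1395 and 1269 across D3TA-1 to D3TA-3, against 1201, 1413.5 and 1908 across WT-1 to WT-3, again lowest in D3TA-1.

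Loading chaperones and trimming enzymes had 6 of 8 positive differences and a median of 0.13. The direction turned without D3TA-3 (median -0.15) and without WT-3 (median -0.01), with 3 of 8 positive in each. Ero1l, an oxidase of the endoplasmic reticulum, had 959, 559.6 and 587 normalized counts across D3TA-1 to D3TA-3, against 391, 313 and 318 across WT-1 to WT-3. All 3 D3TA values were above WT, as in 8.18% of all genes tested, and the mean was 2.004-fold that of WT on the log2(normalized count + 1) scale (limma adjusted p 0.356). Tapbpl, a tapasin-related peptide editor, had a log2 difference of -0.58 ± 0.43 (SE; limma adjusted p 0.698).

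Of 11 other 20S subunits, 4 had positive and 7 negative differences, with a median of -0.08 and no nonoverlapping groups. That median was 0.03 without D3TA-1 and 0.12 without WT-3. Psmb1 (-0.46 ± 0.34) and Psmb3 (-0.30 ± 0.27), structural beta subunits, had the smallest p-values, with limma adjusted p of 0.696 and 0.751 (log2 difference ± SE). Of 10 activators and assembly factors 6 were positive, with a median of 0.18. Without D3TA-1, 3 were positive and the median was -0.05. Psme1, a subunit of the interferon-induced PA28 activator, had 2696, 4205 and 5793 normalized counts across D3TA-1 to D3TA-3, against 5418, 6738 and 7480.5 across WT-1 to WT-3. D3TA-1 and D3TA-2 were below every WT library, with a log2 difference of -0.69 ± 0.34 (SE; limma adjusted p 0.546). Psmf1, a proteasome inhibitor, lay at 0.44 ± 0.32 (SE; limma adjusted p 0.691).

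Among 17 transcription regulators of class I, 6 had positive and 11 negative differences (median -0.26, and -0.07 without D3TA-1). None passed limma's adjusted threshold, and 1 had an unadjusted p under 0.05, on the higher side (6.08% of all genes tested). Ezh2, the methyltransferase of Polycomb repressive complex 2, had 2625, 1752 and 1208 normalized counts across D3TA-1 to D3TA-3, against 800.5, 857 and 797 across WT-1 to WT-3. All 3 D3TA values were above WT, as in 8.18% of all genes tested. D3TA-1 was highest, and the log2 difference was 1.11 ± 0.32 (SE; limma adjusted p 0.302). Irf1, an activator of class I promoters, had 1192, 2187 and 2776 across D3TA-1 to D3TA-3, against 2547, 3186 and 2930.3 across WT-1 to WT-3, again lowest in D3TA-1 (log2 difference -0.57 ± 0.34 SE; limma adjusted p 0.634).

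Of 18 genes induced by interferon gamma 5 had positive and 13 negative differences (median -0.15). The direction turned without D3TA-1 (16 positive, median 0.27), with a term for the hemoglobin share (14 positive, median 0.12) and in DESeq2 (11 positive, median 0.01). In edgeR the median was 0.003 with 9 positive. Split by hemoglobin share, the median was -0.53 with 2 positive at a high share and 0.78 with 18 positive at a low share. The mean level of the list relative to WT stood at -1.14, -0.11 and 1.10 across D3TA-1 to D3TA-3, and within -0.07 to 0.11 for the WT libraries. Gbp3, a guanylate-binding protein, had 326, 734 and 1277 normalized counts across D3TA-1 to D3TA-3, against 955, 1060 and 1028 across WT-1 to WT-3 (limma adjusted p 0.698). Ido1, which degrades tryptophan, was at 10.7, 18.2 and 38.9 across D3TA-1 to D3TA-3, against 1.91, 0 and 11.6 across WT-1 to WT-3, levels below 3 reads in WT-1 and WT-2. Ifng itself was at 2.14, 30.3 and 64.0 across D3TA-1 to D3TA-3, against 20.1, 72.7 and 68.6 across WT-1 to WT-3. The D3TA-1 value lay below 3 reads (3.21 in that library). The log2 difference of Ifng was -1.36 (limma adjusted p 0.711), and -0.08 without D3TA-1. The receptor chain Ifngr2 had a log2 difference of -0.53 ± 0.30 (SE; limma adjusted p 0.617). The 6 genes of the interferon gamma pathway had 1 positive and 5 negative differences (median -0.22, and -0.09 without D3TA-1).

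Of 20 genes induced by type I interferon 16 had positive differences, with a median of 0.67. Without D3TA-3 the median was 0.24 with 13 positive. Split by hemoglobin share, it was 0.15 at a high share and 1.498 at a low share. None passed limma's adjusted threshold, and 5 had an unadjusted p under 0.05, all higher (6.08% of all genes tested). Oas2, an antiviral oligoadenylate synthetase, had 166, 226 and 201 normalized counts across D3TA-1 to D3TA-3, against 18.1, 22.4 and 24.2 across WT-1 to WT-3. All 3 D3TA values were above WT, as in 8.18% of all genes tested (log2 difference 3.14 ± 0.46 SE; limma adjusted p 0.0945). Oas3, of the same family, had 963, 687 and 714 across D3TA-1 to D3TA-3, against 259.8, 208 and 92.8 across WT-1 to WT-3 (log2 difference 2.18 ± 0.41 SE; limma adjusted p 0.112). DESeq2 called both (adjusted p 1.71e-08 for Oas2 and 0.000459 for Oas3). So did limma without D3TA-3 (adjusted p 0.0272 for Oas2 and 0.0364 for Oas3) and without the filter on low values (adjusted p 0.0210 and 0.0298).

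The list of class I receptors on T and NK cells, which also held Lilrb4a of myeloid cells, had 10 of 12 negative differences. Its median was -0.71, and it was -0.42 without D3TA-1 and -1.20 without D3TA-2. Of the 12, 4 had D3TA values wholly below WT (6.84% of all genes tested) and 1 wholly above (8.18%). At an unadjusted limma p under 0.05 stood 6 lower (3.83% of all genes tested) and 2 higher (6.08%). Klra7, an Ly49 receptor, had 5.36, 28.3 and 18.2 normalized counts across D3TA-1 to D3TA-3, against 52.5, 148 and 348 across WT-1 to WT-3. Its D3TA values were all below WT, as in 6.84% of all genes tested (log2 difference -3.20 ± 0.81 SE; limma adjusted p 0.240). Other Ly49 genes may share its reads. Lilrb4a, an inhibitory receptor of myeloid cells, had 348, 301 and 109.8 across D3TA-1 to D3TA-3, against 51.6, 22.4 and 77.3 across WT-1 to WT-3 (log2 difference 2.31 ± 0.60 SE; limma adjusted p 0.247). DESeq2 called Klra7 (adjusted p 0.000305) and Lilrb4a (adjusted p 0.00464). Without D3TA-3, limma called Lilrb4a (adjusted p 0.0354).

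Likeness to the members was measured as the root mean square distance of centred log2 values over the 6 libraries from the members' mean profile. The 5 closest of the tested genes outside the set were Herc3 (0.0612), Casp1 (0.0678), Hdgfl3 (0.0686), Cox6a2 (0.0832) and Snx7 (0.0851), and the median distance of all others was 0.642. Casp1, the protease of the inflammasome, had 362, 675 and 904 normalized counts across D3TA-1 to D3TA-3, against 766, 805 and 856 across WT-1 to WT-3. Among the members Tap1 was the closest to the mean profile (0.119) and Nlrc5 the farthest (0.480). All of these compare 6 libraries only.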

How the data were processed

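Gene expression was measured in 6 spleen libraries, 3 D3TA and 3 WT, grouped by their titles. Per the labels' protocols, poly-T beads captured the messenger RNA and random hexamers primed its cDNA; a strand-marking step is not mentioned. Tools and builds listed in the submitters' processing notes are CASAVA, FastQC, Trim Galore, HISAT2, DESeq2 and mm10, and the counting program is not given in the sources used here. The deposited values are a signal, and its steps show read counts scaled by 1 factor for each library before deposit. Dividing by a step of 0.864 to 1.12 per library gave whole reads within 0.001 for 100% of 149436 values. Recovered reads ranged between 14944622 and 19456838, and 3 reads equal 2.59 to 3.36 normalized counts, a limit that covers counting error only. Zero values were most frequent in WT-2 (8449 genes), the other 5 libraries having 3193 to 5170. Symbols, coordinates and exon lengths came from GENCODE M21 (GRCm38, the same assembly as mm10), which held 24895 of the 24906 identifiers.

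Genes with at least 10 normalized counts in at least 3 libraries (15564) entered a limma 3.58.1 fit of log2(normalized count + 1) on genotype, with trended, robust variance moderation, 2-sided, adjusted by Benjamini-Hochberg at 0.05. Folds are on that scale. Subunit ratios were compared by exact permutation. edgeR 4.0.16 and DESeq2 1.42.0 (R 4.3.3) were run on recovered reads, and matplotlib 3.10.9 under Python 3.11.15 drew the figures. Other alternatives covered scaling, filters, pseudocounts, libraries left out, a replicate block and terms for Y-linked reads and hemoglobin. Leaving out D3TA-1 together with WT-2 was chosen after seeing the data.

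Named genes were all members, the 3 constitutive catalytic subunits, the 2 genes with the smallest p of each pathway list and the 5 most alike. The members and lists were chosen with earlier results of these data known. The labels do not say how the mice were related, so p-values measure the spread between these samples. Without strand, reads of overlapping genes cannot be told apart. Tap1 and Psmb9 overlap by 212 bases, the span of B2m lies inside Patl2, Tapbp overlaps Zbtb22, Psmb10 lies under the antisense gene Gm16156, and parts of Psmb8, Tap2 and Nlrc5 face noncoding genes.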

Additional observations from a re-analysis of the deposited data

How the results depend on the processing

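The call of 0 members past the adjusted threshold was the same under every alternative run, with any one library left out, and with D3TA-1 and WT-2 left out together. The count over all genes was 0 in limma but 44 without the filter on low values, 15 with a term for Y-linked reads, 11 with a term for the hemoglobin share and 472 in DESeq2, and 0 to 278 with one library left out, 278 being the value without D3TA-3. The median member difference of -0.43 ranged between -0.75 (without D3TA-3) and -0.10 (without D3TA-1), and was -0.28 with the hemoglobin term and -0.35 with library size scaling. The median over all genes was 0.06, and it was 0.14 with library size scaling and 0.16 after removal of hemoglobin, immunoglobulin and T cell receptor genes.

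With one library left out, the log2 ratio difference ranged between -0.84 and 0.23 for Psmb8 over Psmb5, between -0.76 and 0.19 for Psmb9 over Psmb6 and between -0.32 and 0.10 for Psmb10 over Psmb7, with the opposite sign without D3TA-1 for all 3 and without WT-2 for Psmb10 (0.0090). With the hemoglobin term Tap1 (0.0057) and Tapbp (0.14) changed direction. With one library left out, genes that changed direction ranged between -0.50 and 0.20 for Tap1, between -0.42 and 0.062 for Tapbp, between -0.42 and 0.057 for Psmb6, between -0.71 and 0.033 for Cox6a2 and between -0.51 and 0.097 for Snx7, the sign turning without D3TA-1 (all but Psmb6), without WT-1 (Tapbp) or without WT-3 (Psmb6). With D3TA-1 and WT-2 both left out, Tap1 was at 0.23, Tapbp at 0.17, Ifng at 0.24 (-2.26 to -0.079 with one library left out), Cox6a2 at 0.01 and Snx7 at 0.04. The cause was not tested.

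No sign was seen that the replicate numbers in the titles pair the libraries (correlations of same-numbered deviations of -0.06, -0.00456 and -0.13). So few libraries cannot show that they were unpaired. With the replicate block limma still called 0 genes and the ratio differences were -0.40, -0.35 and -0.08. With 3 libraries a group, a p above the threshold does not show equal levels.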
